A study of Homo sapiens
Mus musculus and Homo sapiens with 21 samples.

Results

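Cathepsins, legumain and 2 of their cystatin inhibitors were followed in a lung cancer line and, separately, in the mouse tissue around it. The genes were listed by protein family and are the cathepsins A, B, C, D, E, F, H, K, L, O, S, W and Z in both species, cathepsin V in human, and legumain, cystatin C (CST3) and cystatin B (CSTB). Of the 33 genes so named, 32 had a value: 16 of the 17 human genes and all 16 mouse genes, out of 34058 human and 33043 mouse genes in the tables. Human CTSE is not analysed here.

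RNA was read from 21 libraries of H2030-BrM3 cells, a human lung adenocarcinoma line selected for growth in brain, and of athymic nu/nu mice, which lack a working thymus and so most T cells. The cells grew as an unperturbed monolayer (3 libraries), as subcutaneous tumours (4 libraries), or as metastases in forebrain (3 libraries) and hindbrain (3 libraries). Forebrain and hindbrain without tumours gave 4 libraries each. Their labels give the same strain and also name the cell line, and human reads were at most 0.0315% of their total. Mice were injected at 5 to 6 weeks of age (no other age is given), with 100000 to 500000 cells into the heart for metastases or 500000 cells in 50% growth factor reduced Matrigel under the skin. Tumours were dissected by hand with surrounding stroma, so human reads come from the cancer cells and mouse reads from the host. All tumours derive from 1 cell line, and no treatment other than injection is given. Nothing in the labels says which libraries came from separate animals or cultures, so p-values measure the spread between these libraries, part of which may be technical.

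Cathepsins are proteases of the lysosome. Most belong to the papain family of cysteine proteases (B, C, F, H, K, L, O, S, V, W and Z), D and E are aspartic proteases, and A is a serine carboxypeptidase. Legumain is the lysosomal asparaginyl endopeptidase, which also trims several cathepsins to their mature forms. Cystatin C is secreted and inhibits papain-family proteases outside the cell, and cystatin B, or stefin B, does so in the cytosol. Cathepsins S, H and C are known from macrophages and microglia, the resident phagocytes of brain, and secreted cathepsins B, L and S are known for cleaving matrix and junction proteins around tumours.

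Values are RPKM (reads scaled by transcript length and library size), rescaled so that the genes of 1 organism sum to 1000000 in each library. Levels and folds are given on this scale, and differences are log2 of the value plus 1, tested with limma over all genes and called at an adjusted p under 0.05. Folds in the text are 2 to the power of that difference, so they understate changes of genes at low levels. Monolayer and subcutaneous libraries held 27253282 to 49599168 human reads, and metastasis libraries held 3579907 to 6897852. Mouse reads numbered 17747167 to 86139353 in brain and 2446513 to 3982107 in subcutaneous tumours. Haemoglobin genes took 19.4% of the mouse signal in subcutaneous replicate 3 and 1.95 to 4.52% in the other three.

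Human reads that were in fact mouse RNA were estimated for each gene. The 8 tumour-free brains gave at most 5 reads in total for any human member, which were those of CTSZ. At those rates 0.214% of the metastasis reads of CTSZ, 0.158% of those of CTSA, 0.250% of those of CTSV and 1.36% of those of CTSK would come from mouse RNA. A count of 0 allows up to 3 reads, which is 1.00% for CTSC, 1.56% for CTSH and at most 0.219% for CTSD, CTSL, LGMN and CST3. For CTSO and CTSS, with 45 and 9 metastasis reads, it is 15.9% and 79.5%, and for CTSF and CTSW it exceeds their few reads, so these 4 genes have no useful bound. In the other direction, 0.220% of the subcutaneous reads of Cst3 would come from human RNA, the highest rate observed for a mouse member, and a count of 0 allows up to 2.56% for Ctsw, 1.29% for Ctse, 0.711% for Ctso and 0.703% for Ctsf.

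CTSL and CTSV lie on chromosome 9 of GRCh38 (CTSL at 87724051-87731469 on the plus strand, CTSV at 97029677-97156556 on the minus strand) and are the most alike pair of human members treated here, so their reads could be exchanged. Their coding sequences, 1002 and 1005 bases long in GENCODE 44, are 83.5% identical over 1002 aligned bases. The stretch that holds their longest identical run, 40 bases, is shown because the results below set them against each other, with capitals at the 5 bases that differ in 90. The first is a coding part of CTSL at chr9:87728593-87728682 (plus strand), and the second is the matching part of CTSV at chr9:97036650-97036739 (minus strand).
CTSL: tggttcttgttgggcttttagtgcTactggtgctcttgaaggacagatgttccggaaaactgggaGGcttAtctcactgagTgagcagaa
CTSV: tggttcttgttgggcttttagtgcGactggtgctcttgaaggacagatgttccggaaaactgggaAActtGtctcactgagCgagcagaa
No stretch of 50 bases is shared by their transcripts, and 1.23% of the 30-base stretches of CTSL occur in CTSV. Read length is not given in the sources used here. The 6 CTSL pseudogene entries in the table stayed at or under 0.540 in all libraries with cancer cells.

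TFEB, a master regulator of lysosomal genes, binds sites built on the E-box CACGTG. This motif occurred in the 250 bases before the annotated start of 5 of the 16 human members, CTSA, CTSB, CTSD and CTSF among them, against 7.88% of 19061 protein-coding promoters of the same length. CACGTG reads the same on both strands, so 1 search covers both. Parts of the promoters of CTSD and CTSA are shown because both genes were above monolayer in both tumour settings, as given below, and capitals mark each CACGTG. They come from the GRCh38 reference.
CTSD, chr11:1763947-1763996, minus strand: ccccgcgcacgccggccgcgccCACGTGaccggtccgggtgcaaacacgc
CTSA, chr20:45891271-45891334, plus strand: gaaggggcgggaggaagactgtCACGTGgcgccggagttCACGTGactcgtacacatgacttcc
A match describes letters only. CTSV and CST3, which were also above monolayer, had no CACGTG in this window, and CTSF, which has 2, gave 2 reads in all tumour libraries together. CTSB, which has 1, was called below monolayer under the skin and was not called against it in brain.

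In the cancer cells the family was led on the RPKM scale by the endopeptidases CTSB and CTSL in monolayer and by CTSB alone in brain. The order between genes depends on the lengths used for scaling, 580 bases for CTSB and 982 for CTSL. In undivided monolayer reads CTSL, with 79830, stood above CTSB, with 63493. CTSB was the 120th most abundant of 34058 human genes in monolayer, the 184th in subcutaneous tumours and the 98th in brain metastases, while CTSL went from 178th to 634th and 754th. CTSA, CTSZ and LGMN followed at mean levels between 196 and 404 in every setting, and CTSD and CST3 between 96.8 and 208. CTSF, CTSO, CTSS and CTSW were at or under 1.44 in every library with cancer cells and were not tested. The other 12 human members passed the filter on low values.

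CTSB, a protease that can act as endopeptidase and as carboxypeptidase, stood at 872, 923 and 885 in the 3 monolayer libraries. Its level in subcutaneous tumours was 644, 613, 654 and 592. Forebrain metastases gave 1047, 1006 and 1148, and hindbrain metastases 1175, 1054 and 785. All 6 brain libraries lay above all 4 subcutaneous ones, and hindbrain replicate 3 alone lay below monolayer.

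The brain libraries exceeded the subcutaneous ones 1.64-fold for CTSB (log2 difference 0.72 ± 0.09 (SE), limma adjusted p = 1.18e-05). It was the only member called higher there. Against monolayer it was lower in subcutaneous tumours (log2 -0.51, adjusted p = 0.000706), while in brain the difference of 0.20 was not called (adjusted p = 0.1). That last difference was called without hindbrain replicate 3 (0.29, adjusted p = 0.00116) and with nuclear genes only (0.23, adjusted p = 0.0499).

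CTSL, the main lysosomal endopeptidase of many cells, stood at 657, 671 and 660 in monolayer. Subcutaneous tumours gave 299, 209, 226 and 270, forebrain metastases 172, 183 and 245, and hindbrain metastases 311, 254 and 245. The highest tumour library was thus below every monolayer library, and the tumour groups overlapped. CTSL fell by 1.41 on the log2 scale in subcutaneous tumours and by 1.52 in brain metastases against monolayer, a 2.66-fold and a 2.87-fold fall (limma adjusted p = 8.73e-07 and 3e-07). Between brain and subcutaneous tumours the log2 difference was -0.11 ± 0.11 (SE) and was not called (adjusted p = 0.443).

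CTSV, the near relative of CTSL best known from thymus, testis and cornea, moved the other way. Its monolayer levels were 12.7, 13.9 and 13.6, its subcutaneous levels 42.1, 37.4, 40.7 and 36.8. Forebrain metastases gave 22.1, 19.0 and 17.6 and hindbrain metastases 25.1, 20.2 and 21.2. The monolayer, the brain and the subcutaneous libraries formed 3 ranges without overlap, in that order. CTSV was 2.79-fold higher in subcutaneous tumours than in monolayer and 1.51-fold higher in brain metastases (limma adjusted p = 2.24e-08 and 7.37e-05), and it was 1.85-fold lower in brain than under the skin (log2 -0.89, adjusted p = 7.38e-07). Even so, CTSL remained above CTSV in every library with cancer cells.

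**Figure D1:**
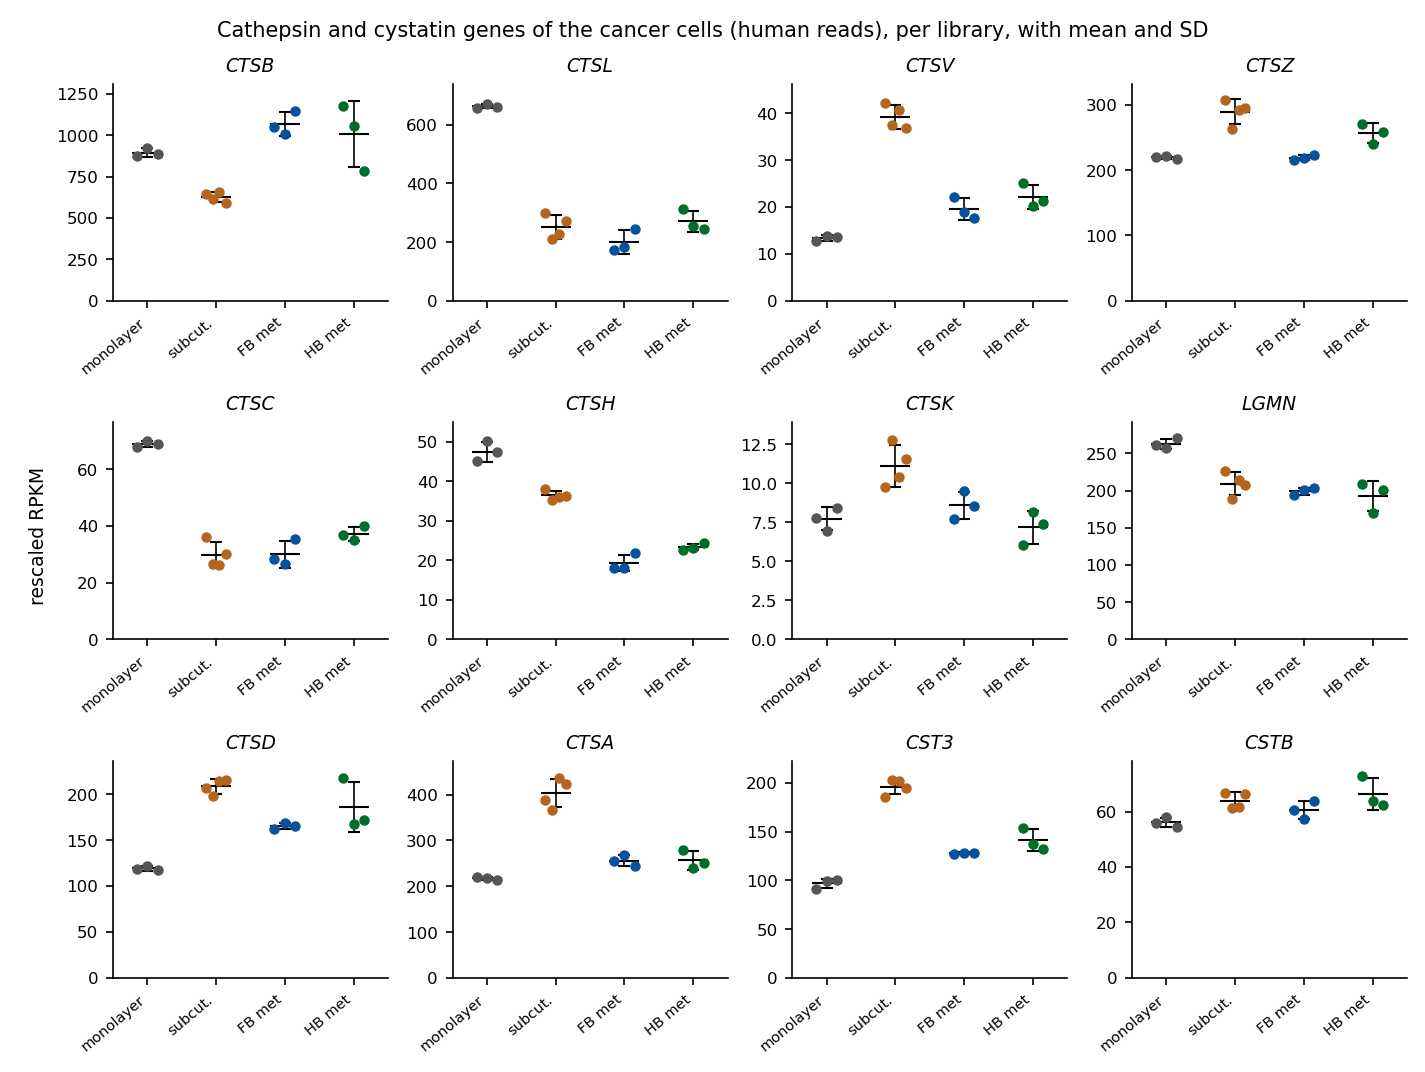
Rescaled RPKM of the 12 tested human genes in each library of monolayer, subcutaneous tumours, and forebrain and hindbrain metastases, on linear axes from 0, with the mean and SD of each group. CTSB is lowest under the skin, CTSL is highest in monolayer, and CTSV is highest in subcutaneous tumours (36.8 to 42.1).

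Among the cysteine exopeptidases, the dipeptidyl peptidase CTSC and the aminopeptidase CTSH were highest in monolayer. CTSC stood at 67.8, 69.8 and 69.0 in monolayer, and at 26.3 to 39.8 over all 10 tumour libraries, which overlapped between sites. It was called lower in subcutaneous tumours (2.29-fold) and in brain metastases (2.04-fold) than in monolayer. CTSC did not differ by the test between brain and subcutaneous tumours (log2 0.17, limma adjusted p = 0.157). Without subcutaneous replicate 1 it was 0.26 and was called (adjusted p = 0.0236). From 92 to 199 reads stood behind each metastasis value.

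CTSH was graded in 3 steps without overlap. Monolayer gave 45.0, 50.1 and 47.4, subcutaneous tumours 38.1, 35.3, 36.0 and 36.4, forebrain metastases 18.1, 18.0 and 21.8, and hindbrain metastases 22.7, 23.1 and 24.3. It fell by 0.75 on the log2 scale from subcutaneous tumours to brain metastases (limma adjusted p = 4.5e-07) and by 1.13 from monolayer to brain metastases (adjusted p = 1.92e-08).

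CTSZ, a carboxypeptidase also called cathepsin X, kept a narrow range. Monolayer gave 217 to 222, subcutaneous tumours 263 to 308, forebrain metastases 216 to 223 and hindbrain metastases 240 to 270. It was called lower in brain than in subcutaneous tumours (1.22-fold) and higher in subcutaneous tumours than in monolayer (1.31-fold). Between brain and monolayer its log2 difference of 0.11 was not called (limma adjusted p = 0.124), but it was with nuclear genes only (0.14, adjusted p = 0.0352). CTSK, the collagen-degrading protease of osteoclasts, was low throughout, from 6.03 to 12.8, with 22 to 36 reads in each metastasis library. It was 1.37-fold lower in brain metastases than in subcutaneous tumours (limma adjusted p = 0.00187).

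The aspartic protease CTSD stood at 118, 122 and 118 in monolayer, and at 206, 198, 214 and 215 in subcutaneous tumours. Forebrain metastases gave 162, 169 and 165, and hindbrain metastases 218, 168 and 172. All 10 tumour libraries lay above monolayer, and hindbrain replicate 1 alone of the brain libraries was as high as the subcutaneous ones. CTSA, the carboxypeptidase that also protects lysosomal galactosidase and sialidase, went from 214 to 219 in monolayer to 367 to 436 under the skin and 239 to 280 in brain. CTSD and CTSA were called higher than monolayer in subcutaneous tumours (1.74-fold and 1.85-fold) and in brain metastases (1.46-fold and 1.18-fold), and called lower in brain than under the skin (1.19-fold and 1.57-fold).

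LGMN, legumain, stood at 257 to 270 in monolayer, at 189 to 226 in subcutaneous tumours and at 170 to 209 in brain metastases. It was called lower than monolayer in both settings (1.26-fold and 1.34-fold). Between brain and subcutaneous tumours its log2 difference of -0.09 was not called (limma adjusted p = 0.23), but it was with median-of-ratios scaling (-0.18, adjusted p = 0.0212) and with sums over nuclear genes only (-0.19, adjusted p = 0.0149).

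Of the inhibitors, CST3 formed the same 3 ranges as CTSV. Cystatin C transcript was 91.1, 99.6 and 99.8 in monolayer, 186, 203, 202 and 194 in subcutaneous tumours, 127, 128 and 128 in forebrain metastases and 154, 138 and 132 in hindbrain metastases. It was 2.02-fold above monolayer under the skin and 1.38-fold above it in brain, and fell by 0.54 on the log2 scale from the former to the latter (limma adjusted p = 1.24e-06). CSTB stayed between 54.5 and 72.9 in all libraries. Its called rises over monolayer, 1.14-fold and 1.13-fold (adjusted p = 0.0304 and 0.0367), depended on single libraries. The first was lost without monolayer replicate 1 or 3 or subcutaneous replicate 1 or 4 (adjusted p 0.0723 to 0.111). The second was lost without any 1 monolayer library, forebrain replicate 1 or 3 or hindbrain replicate 1 (adjusted p 0.0519 to 0.145), and with median-of-ratios scaling (0.0781).

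By count, 8 of the 12 tested human members were called between brain metastases and subcutaneous tumours, 1 higher and 7 lower, where 50% of 14557 genes were called, 31.2% higher and 18.8% lower. The share called higher and lower among all genes depends on the scaling: 4537 and 2739 genes here, but 3550 and 3618 with median-of-ratios scaling and 3478 and 3733 with nuclear genes only. The median log2 difference of the 12 was -0.27, against 0.05 over all genes. Between brain metastases and monolayer 9 of 12 were called, 5 higher and 4 lower, where 42.9% of all genes were called, 21.9% higher and 21% lower (median 0.14 against 0.01). Between subcutaneous tumours and monolayer all 12 were called, 7 higher and 5 lower, where 52.4% of all genes were called, 21.5% higher and 30.9% lower (median 0.29 against -0.05). All-gene calls there split into 3136 higher and 4499 lower, and into 4158 and 3296 with nuclear genes only, a scaling that shifts the median of all genes from -0.05 to 0.06 without turning a called member. The first comparison shares its brain libraries with the second and its subcutaneous libraries with the third, so the counts are not independent.

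**Figure D2:**
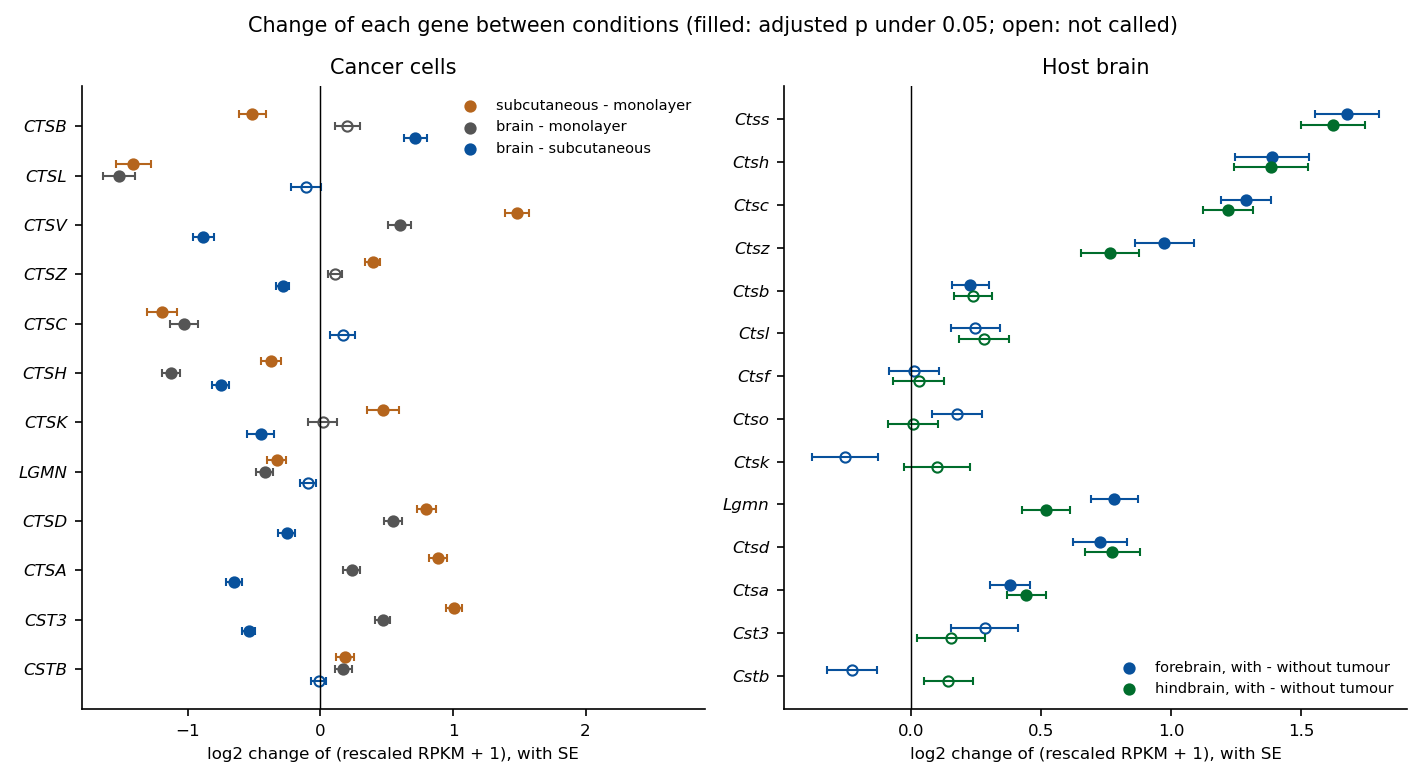
Log2 change of each gene with its standard error, for the cancer cells (left, 3 comparisons) and the host brain (right, tumour-bearing against tumour-free, 2 regions), with filled points for calls. CTSB is the only human gene called higher in brain than under the skin, and all called host genes in tumour-bearing brain are higher.

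Cancer cells of forebrain and hindbrain were compared for the same genes. None of the 12 was called by limma, where 3.3% of all genes were, 1.85% higher and 1.45% lower in forebrain. At an unadjusted p under 0.05 there were 5 (CTSZ, CTSH, CTSL, CTSC and CST3), all lower in forebrain, and voom on recovered reads also called 0. The share of all genes at that unadjusted threshold was not counted, so these 5 cannot be set against it. The nearest to a call were CTSZ (log2 -0.22 ± 0.06 (SE), adjusted p = 0.0637) and CTSH (-0.27 ± 0.08, adjusted p = 0.0789), whose libraries did not overlap between the regions. As calls near the threshold, these moved with the setting. CTSZ was called with median-of-ratios scaling (adjusted p = 0.0428), with nuclear genes only (0.0392), without hindbrain replicate 2 (0.0443) and without subcutaneous replicate 2 (0.0416). Without forebrain replicate 3, CTSH and CTSL were called (adjusted p = 0.0182 and 0.0234). With all libraries CTSL differed by -0.44 ± 0.14 (SE) on the log2 scale (limma adjusted p = 0.0984). Its libraries and those of CST3 did not overlap between the regions either.

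Genes that make, deliver and acidify the lysosome were counted from fixed lists in the same human comparison of brain metastases with subcutaneous tumours. Over all genes 50% were called there, 31.2% higher and 18.8% lower. With higher and lower calls added up, the hydrolases and membrane genes were called about as often. Their calls were more often lower than higher, while those over all genes were more often higher, a balance that depends on the scaling as given above. Of 30 other acid hydrolases, 4 were called higher and 13 lower, and 3 and 17 with median-of-ratios scaling or nuclear genes only. GALC, the galactosylceramidase, was highest among the risers (1.64-fold), and IDUA, MAN2B1 and SGSH fell by 1.01, 0.72 and 0.71 on the log2 scale. Of 10 delivery genes 4 were higher and 3 lower. SORT1, a sorting receptor for lysosomal proteins, stood at 341 ± 19.8 (SD, n = 3) in forebrain and 289 ± 12.2 (SD, n = 3) in hindbrain metastases against 160 ± 10.7 (SD, n = 4) under the skin. SORL1, its relative, was 2.17-fold higher, with 5.82% of its metastasis reads expected from mouse RNA. GRN, the progranulin precursor, and PSAP, the saposin precursor, fell by 0.74 and 0.56 on the log2 scale.

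Of 14 tested lysosomal membrane genes 3 were higher and 5 lower (7 lower with median-of-ratios scaling or nuclear genes only), with SLC17A5 falling by 0.91. Of 14 tested proton pump subunits 4 were higher and 3 lower, by at most 0.34. The balance among the pump subunits turned with the scaling, to 3 higher and 4 lower with median-of-ratios scaling and to 3 and 5 with nuclear genes only. TFEB and MITF, 2 of 3 tested regulators, were higher in brain metastases (log2 0.49 and 0.40), and both stayed at or under 5.92 as group means in the tumours. None of 6 other inhibitors in the human table, and not the serine protease gene CTSG, passed the filter on low values. The invariant chain gene CD74, a substrate of cathepsin S in antigen presentation, was at or under 0.0870 as a group mean in the cancer cells.

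In the host, the phagocyte cathepsins rose in brain that carried metastases. Ctss, the cathepsin that processes the invariant chain, stood at 69.4, 67.4, 59.5 and 73.7 in tumour-free forebrain and at 241, 207 and 206 in tumour-bearing forebrain. Tumour-free hindbrain gave 59.3, 68.2, 46.7 and 48.8, and tumour-bearing hindbrain 187, 177 and 153. No tumour-bearing library reached down to any tumour-free one. Ctss was 3.2-fold higher in forebrain and 3.08-fold higher in hindbrain with metastases (limma adjusted p = 1.39e-06 and 3.14e-06). In bulk tissue such as this, more cells of a type and more RNA per cell cannot be told apart.

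Ctsh, the aminopeptidase, gave 17.2, 18.2, 16.8 and 17.6 in tumour-free forebrain and 53.7, 47.8 and 41.3 with metastases. In hindbrain it went from 16.7, 21.2, 13.8 and 14.9 to 48.1, 52.0 and 35.3. Ctsc, which activates granule serine proteases, went from 17.9, 16.3, 17.0 and 16.7 to 48.7, 43.3 and 37.3 in forebrain, and from 18.8, 18.0, 18.8 and 15.6 to 46.1, 44.1 and 38.1 in hindbrain. Both kept clear gaps between tumour-bearing and tumour-free libraries. Ctsh was 2.62-fold and 2.61-fold higher with metastases in the 2 regions, and Ctsc 2.44-fold and 2.33-fold.

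A second step of the order held Ctsz, Ctsd and Lgmn. Ctsz stood at 27.4 to 34.2 in tumour-free and 53.6 to 66.1 in tumour-bearing forebrain, and at 28.9 to 38.2 and 50.3 to 61.6 in hindbrain. Ctsd, the aspartic protease, went from 123 to 148 up to 199 to 247 in forebrain and from 122 to 144 up to 206 to 267 in hindbrain. Lgmn went from 98.5 to 114 up to 164 to 200 in forebrain, and from 133 to 153 up to 189 to 236 in hindbrain. Their rises were 1.97-fold, 1.66-fold and 1.72-fold in forebrain and 1.7-fold, 1.71-fold and 1.43-fold in hindbrain, all called, and the ranges did not overlap within a region.

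Ctsa rose by less, 1.3-fold in forebrain and 1.36-fold in hindbrain (limma adjusted p = 0.00261 and 0.00293). Ctsb, the mouse counterpart of the cathepsin with the highest RPKM in the cancer cells, stood at 155, 165, 175 and 177 in tumour-free forebrain and at 212, 189 and 190 with metastases. Its rise of 1.17-fold was called in forebrain (adjusted p = 0.0269), but not without replicate 1 or 2 of either forebrain group (adjusted p 0.0538 to 0.131). In hindbrain the same step of 1.18-fold was not called (adjusted p = 0.105).

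Ctsl, Ctsf, Ctso, Ctsk and both cystatins were not called in either region. Ctsl differed by 0.25 and 0.28 on the log2 scale (limma adjusted p = 0.0618 and 0.164), and in forebrain it was called with median-of-ratios scaling (adjusted p = 0.042), with nuclear genes only (0.0386) and without tumour-bearing replicate 3 (0.0198). Without that same library the log2 differences of Cst3 (0.39) and Ctso (0.29) were called too, at 0.0486 and 0.0364. Cstb stood lower in forebrain with metastases by 0.23 (adjusted p = 0.0844), and by 0.28 without tumour-free forebrain replicate 1 (0.0373). Ctse and Ctsw, known from lymphoid and epithelial cells, were at or under 0.916 in every brain library and were not tested there.

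Counted over the list, 8 of 14 tested mouse members were called in forebrain, all higher, where 30.4% of 15777 genes were called and 14.4% were higher. In hindbrain 7 of 14 were called, all higher, where 3.25% of genes were called and 2.92% were higher. The 7 are those called in forebrain without Ctsb. Their tumour-bearing libraries may share animals between regions, and the medians over the 14 were 0.33 and 0.36 on the log2 scale, against -0.03 and -0.01 over all genes.

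The response of the regions to metastases did not differ by the test for any of the 14, where 0.456% of all genes did. One member had an unadjusted p under 0.05 (Cstb, log2 difference between the regions' changes -0.37 ± 0.13 (SE), adjusted p = 0.156), and voom on recovered reads called 0. Here too the share of all genes at that unadjusted threshold was not counted. For Ctss the difference was 0.05 ± 0.17 (SE) and for Ctsh 0.00 ± 0.20, and standard errors of this size limit the difference that could be called.

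**Figure D3:**
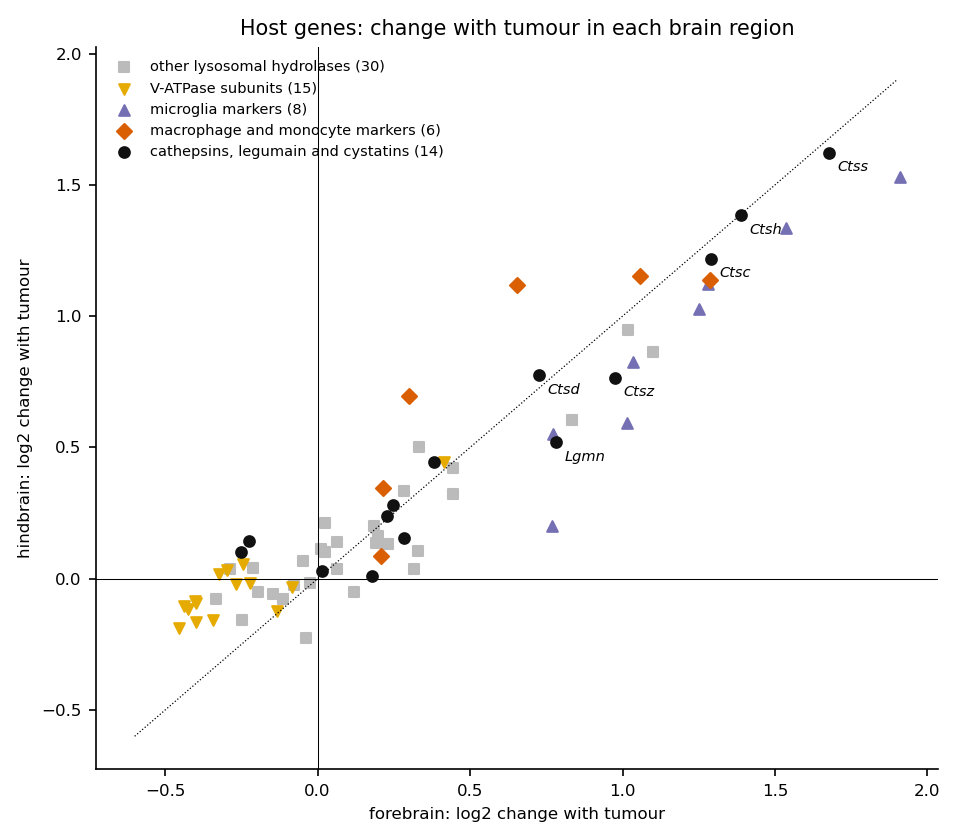
Log2 change with metastases in forebrain (horizontal) against hindbrain (vertical) for 14 host cathepsin and cystatin genes, 30 other lysosomal hydrolases, 15 proton pump subunits, 8 microglia and 6 macrophage and monocyte markers, 1 point a gene. Ctss, Ctsh and Ctsc lie near the dotted line of equal change, and most pump subunits lie left of 0.

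Cell type markers moved with these genes. The summed level of 8 microglia markers was 140 to 161 in tumour-free and 279 to 395 in tumour-bearing forebrain, and 88.3 to 111 and 154 to 210 in hindbrain. All 8 were called higher in forebrain and 6 of 8 in hindbrain, with median log2 differences of 1.14 and 0.93, and no group mean was at 0. The 8 macrophage and monocyte markers summed to 14.5 to 18.3 and 30.3 to 37.9 in forebrain and to 17.7 to 32.6 and 47.6 to 53.0 in hindbrain, with 3 and 4 of 6 tested genes called higher. Of these, Plac8 and Ccr2 had tumour-free group means of at most 0.420 and 0.376. They passed the filter on low values only through tumour-bearing libraries, so a call of them could only be higher. The part of microglia and of macrophages and monocytes in the rise of Ctss, Ctsh, Ctsc, Ctsz, Ctsd, Lgmn and Ctsa was not tested. The 9 lymphoid and natural killer markers summed to under 1 (at most 0.925) in every brain library. Of 7 astrocyte markers 5 were called higher in forebrain (14.4% of all genes were) and 1, Gfap, in hindbrain (2.92%), and of 6 neuron markers 3 were called lower in forebrain (16%) and none in hindbrain.

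Other host lysosomal genes were read against the same shares of all genes, 14.4% higher and 16% lower in forebrain and 2.92% and 0.33% in hindbrain. Of 30 hydrolases 9 were higher and 1 lower in forebrain with metastases, a called share near that of all genes (30.4%), and 5 were higher and none lower in hindbrain. Man2b1, the lysosomal alpha-mannosidase, went from 22.3 ± 1.95 (SD, n = 4) to 49.0 ± 3.29 (SD, n = 3) in forebrain. Of 16 membrane genes, Laptm5, Cd68, Slc11a1 and Npc1 were higher in forebrain, and Laptm5, Cd68 and Slc11a1 in hindbrain. Grn was 2.2-fold higher in forebrain, where 3 of 10 delivery genes were called, all higher. Of 15 tested proton pump subunits 11 were lower and 1 was higher in forebrain (9 lower with nuclear genes only), and in hindbrain none was lower and 1 higher. The regions' changes did not differ by the test for any of the 15. Atp6v1b2 stood at 1575 ± 39.5 (SD, n = 4) without and 1153 ± 115 (SD, n = 3) with metastases in forebrain.

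Of 12 other inhibitors of these proteases among the mouse genes, 7 were tested in brain. In forebrain with metastases 5 were higher (14.4% of all genes were) and none lower, or 1 lower with median-of-ratios scaling and with voom, and in hindbrain 4 were higher (2.92%) and none lower. Cst7, cystatin F, had group means of 0.0358 and 0.0658 in tumour-free forebrain and hindbrain and 4.29 in both tumour-bearing groups. It thus passed the filter on low values only through tumour-bearing libraries, and a call of it in these counts could only be higher. Ctla2a, a propeptide-like inhibitor of cathepsin L, rose 3.43-fold in forebrain and Serpina3n 2-fold. A2m, alpha-2-macroglobulin, went from 3.25 ± 0.750 (SD, n = 4) to 16.6 ± 5.32 (SD, n = 3) in forebrain and from 26.7 ± 2.76 (SD, n = 4) to 41.2 ± 3.82 (SD, n = 3) in hindbrain.

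Tumour-free forebrain and hindbrain were compared as well, and the members were called about as often as all genes. Cst3 was the 41st most abundant of 33043 mouse genes in tumour-free forebrain, at 1536, 1684, 1776 and 2022, against 996, 1392, 959 and 1091 in hindbrain. It was 1.59-fold higher in forebrain (limma adjusted p = 0.000275). Lgmn, Ctsf and Cstb were lower there, each by 0.42 to 0.44 on the log2 scale, and none of these 4 genes overlapped between the regions. In all, 2 of 14 were higher and 5 lower, where 52.8% of all genes were called, 20.2% higher and 32.5% lower. The calls of Ctsb, Ctso and Ctss (adjusted p = 0.0362, 0.0279 and 0.0459) were each lost without single libraries. Ctsb was lost without tumour-free forebrain replicate 1 or 2 or hindbrain replicate 2 or 4 (0.0769 to 0.104). Ctso was lost without forebrain replicate 2 or 3 or hindbrain replicate 1, 3 or 4 (0.0518 to 0.0889). Ctss was lost without tumour-free forebrain replicate 1, 2 or 4 or hindbrain replicate 3 or 4 (0.0795 to 0.142), and without tumour-bearing forebrain replicate 2 or 3 or hindbrain replicate 2 (0.0527 to 0.0550). Ctsk, not called (0.0676), was called without forebrain replicate 2 (0.0302). Genes called over the whole table were 3194 higher and 5133 lower, and 4221 and 4037 with median-of-ratios scaling, under which Ctsb and Ctso were not called (adjusted p = 0.274 and 0.172). Microglia markers were higher in forebrain (7 of 8 called), and their part in the Ctss difference was not tested.

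**Figure D4:**
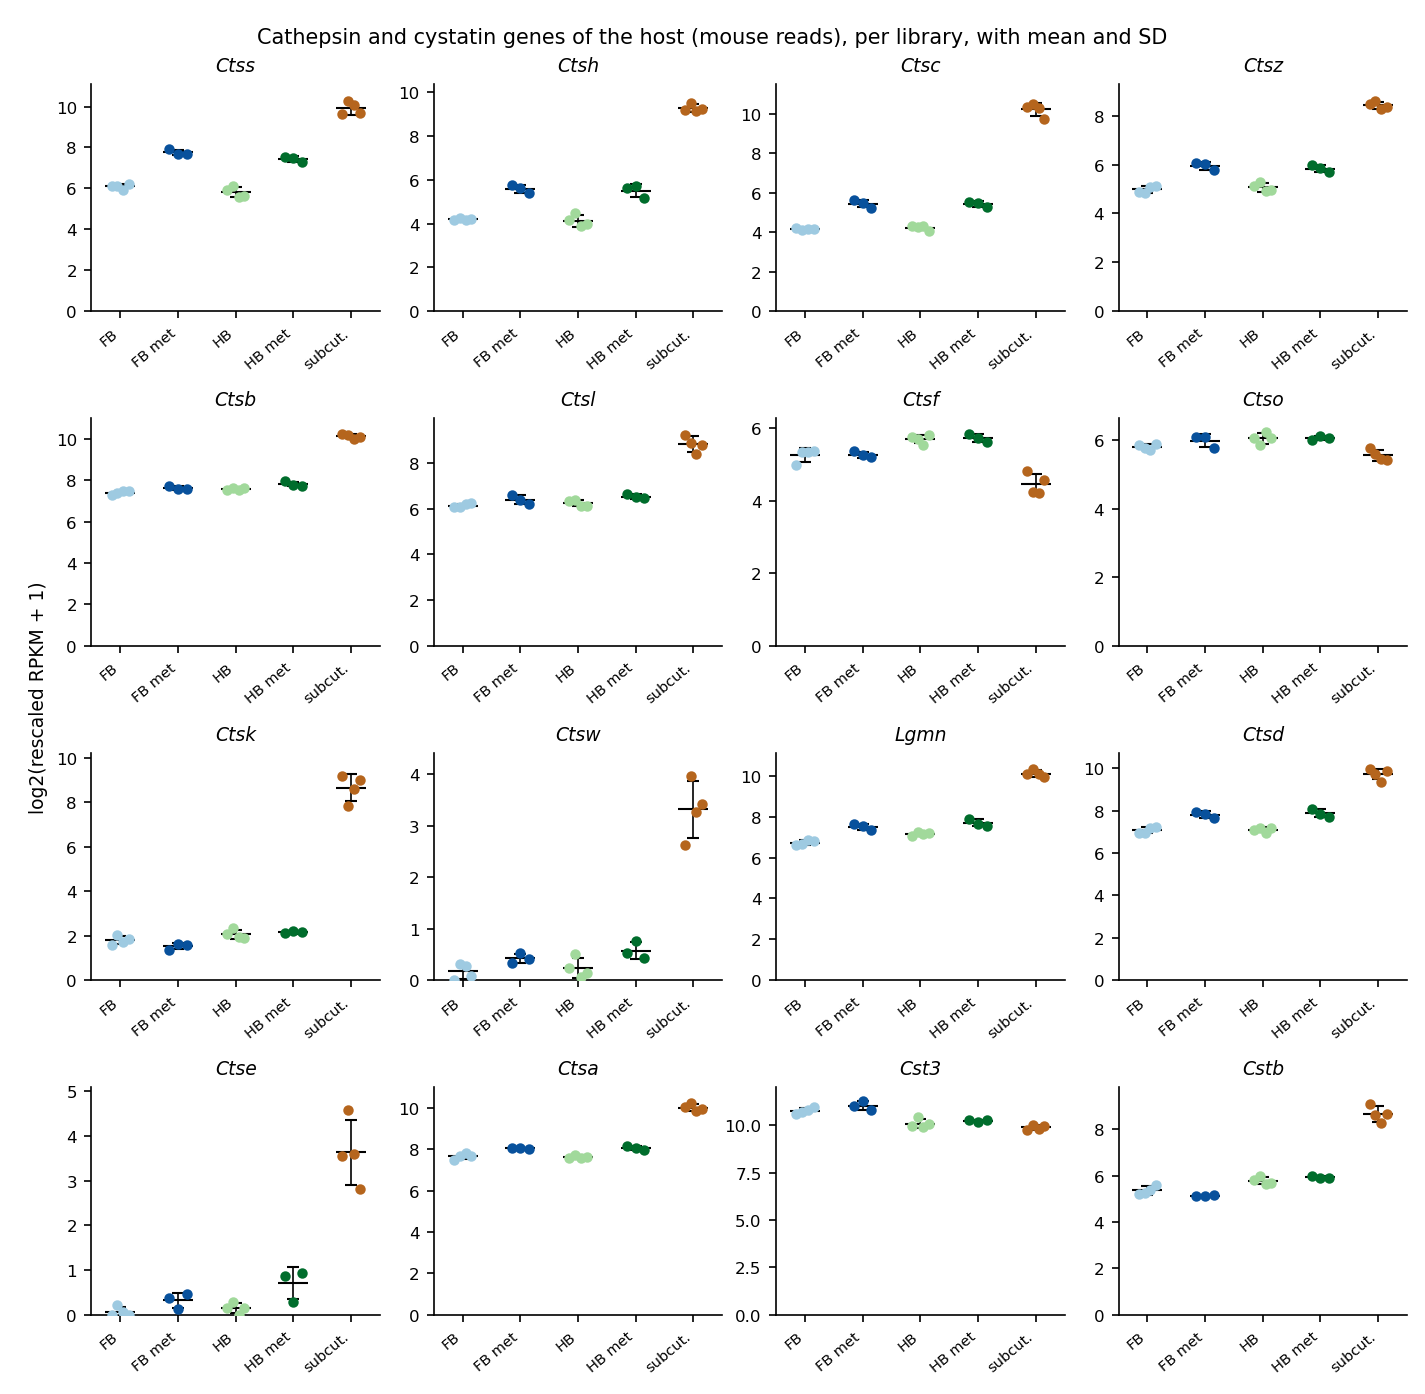
Log2 of rescaled RPKM plus 1 for the 16 mouse genes in each library of tumour-free and tumour-bearing forebrain and hindbrain and of subcutaneous tumours, with the mean and SD of each group. Ctss, Ctsh and Ctsc step up with metastases in both regions and higher again in subcutaneous tumours, where Ctsk goes from at most 4.01 in brain to 226 or more.

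The host part of subcutaneous tumours held far more cathepsin transcript than tumour-bearing brain. These are tissues of different make-up, so the comparison describes where a host gene is read. Of 16 tested members 13 were higher and 3 lower, where 80.7% of 16814 genes were called, 33.5% higher and 47.1% lower, with a median log2 difference of 2.45 against -0.26 over all genes. Ctse and Ctsw, at or under 0.916 in every tumour-bearing brain library, passed the filter on low values only through the subcutaneous libraries. Their calls, counted among the 13 and in the median, could thus only be higher. All-gene calls were 5640 higher and 7922 lower, and 6812 and 6516 with voom on recovered reads. Leaving out any 1 of the 10 libraries kept 16 calls, subcutaneous replicate 3 included.

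Ctsk, which is scarce in brain (1.58 to 3.68 in tumour-bearing libraries), reached 580, 226, 387 and 513 under the skin, 112-fold higher. Ctsc reached 1305, 1463, 1283 and 858 (27.5-fold) and was the 61st most abundant mouse gene there. Ctsh reached 569 to 740 (13.3-fold), Ctss 802 to 1227 (4.94-fold), Lgmn 979 to 1289 (5.65-fold) and Ctsb 1029 to 1208 (5.32-fold). The levels of these genes in the 4 tumours all exceeded the highest brain level.

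Ctsa, Ctsd, Ctsl and Ctsz were 3.72-fold to 5.8-fold higher, and Cstb 8.7-fold (306 to 539). Ctse and Ctsw, near 0 in brain, reached 6.01 to 22.8 and 5.14 to 14.7. Cst3 (876 to 1029), Ctsf (17.5 to 27.1) and Ctso (41.6 to 53.6) were lower than in tumour-bearing brain, by 0.75, 1.05 and 0.47 on the log2 scale. The libraries of Ctso overlapped, and its call was lost with voom on recovered reads (log2 -0.21, adjusted p = 0.213), a scaling by which the median of all genes moved from -0.26 to 0.02.

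Macrophage and monocyte markers summed to 4866 to 5833 in subcutaneous tumours, fibroblast markers to 36623 to 75021 against 135 to 235 in tumour-bearing brain, and lymphoid and natural killer markers to 30.1 to 98.1, with no group mean of these 3 lists at 0. The 8 microglia markers summed to 523 to 738 under the skin, above every brain library (at most 395), so that sum is not particular to microglia. The list was split, with 4 called higher and 3 lower than in tumour-bearing brain. Csf1r had a mean of 220 under the skin against 91.6 and 55.8 in tumour-bearing forebrain and hindbrain. Sall1 had 0.0619 against 11.7 and 8.34, and P2ry12 11.5 against 51.2 and 25.3. The T cell marker Cd3e had a mean of 0.148 ± 0.297 (SD, n = 4). Their part in the levels of Ctsk, Ctsc and the rest was not tested. Of 30 other hydrolases 24 were higher and 6 lower (Lipa 3.29, Scpep1 2.98 and Dnase2a 2.91 on the log2 scale). The antigen presentation genes Cd74, Ciita, H2-DMa and H2-DMb1 were all higher, with Cd74, which encodes the invariant chain processed by Ctss, at 1803 ± 678 (SD, n = 4). The pump subunit Atp6v0d2 (46.9 ± 18.4 (SD, n = 4)) and the regulator Tfec (22.1 ± 2.71 (SD, n = 4)), both known from macrophages and osteoclasts, had group means of at most 0.0590 and 0.135 in tumour-bearing brain.

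Because reads of both species come from 1 library, the share of each transcript that was human could be set beside the share over all genes. Reads were divided by transcript length within each species before the share was taken. All human genes together made 8.65% of the signal in forebrain metastases, 9.39% in hindbrain metastases and 92% in subcutaneous tumours. For pairs of genes with the same symbol the median was 8.13% over 11226 pairs in forebrain, 8.14% in hindbrain and 92.4% under the skin.

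CTSB was 33.7% human in forebrain (range 30.6 to 35.5%) and 31.5% in hindbrain (23.2 to 36.0%), above the upper quartile of those pairs. That share rests on the lengths used for scaling, 580 bases for CTSB and 4739 for Ctsb. Undivided reads over the 6 libraries were 17659 for CTSB and 293450 for Ctsb, where 4.83 to 7.52% of all reads were human. The high share of CTSB therefore cannot be separated from these lengths. CTSZ was 25.1% and 31.9% human, CTSL 18.4% and 23.4%, and CTSK 29.9% and 17.6%. After division by length, every metastasis library lay above the all-gene share for these 4 genes. LGMN, CTSA, CTSD and CTSC lay near it, between 6.12 and 9.30%.

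CTSS and CST3 lay at the other end. CTSS was 0.0266% human in forebrain and 0.0172% in hindbrain metastases, with 9 human against 76822 mouse reads over the 6 libraries, and up to 79.5% of the 9 may be mouse RNA. CST3 was 0.562% and 1.20% human, and the host level was 1166 or more in every tumour-bearing library. CTSH was 3.66% and 5.11% human. In subcutaneous tumours CTSZ (90.3%) and CTSL (85.9%) were mainly human, CTSC (23.6%), CTSK (26.1%) and CTSS (0.768%) mainly mouse, and CTSH (41.7%) was mixed, ranging from 29.3 to 57.8%. CTSB was 86.3% human there after division by length, but its undivided reads were 55867 human and 67444 mouse. Shares are descriptions of these dissections, since they move with how much tumour was cut out and with the lengths used for scaling.

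**Figure D5:**
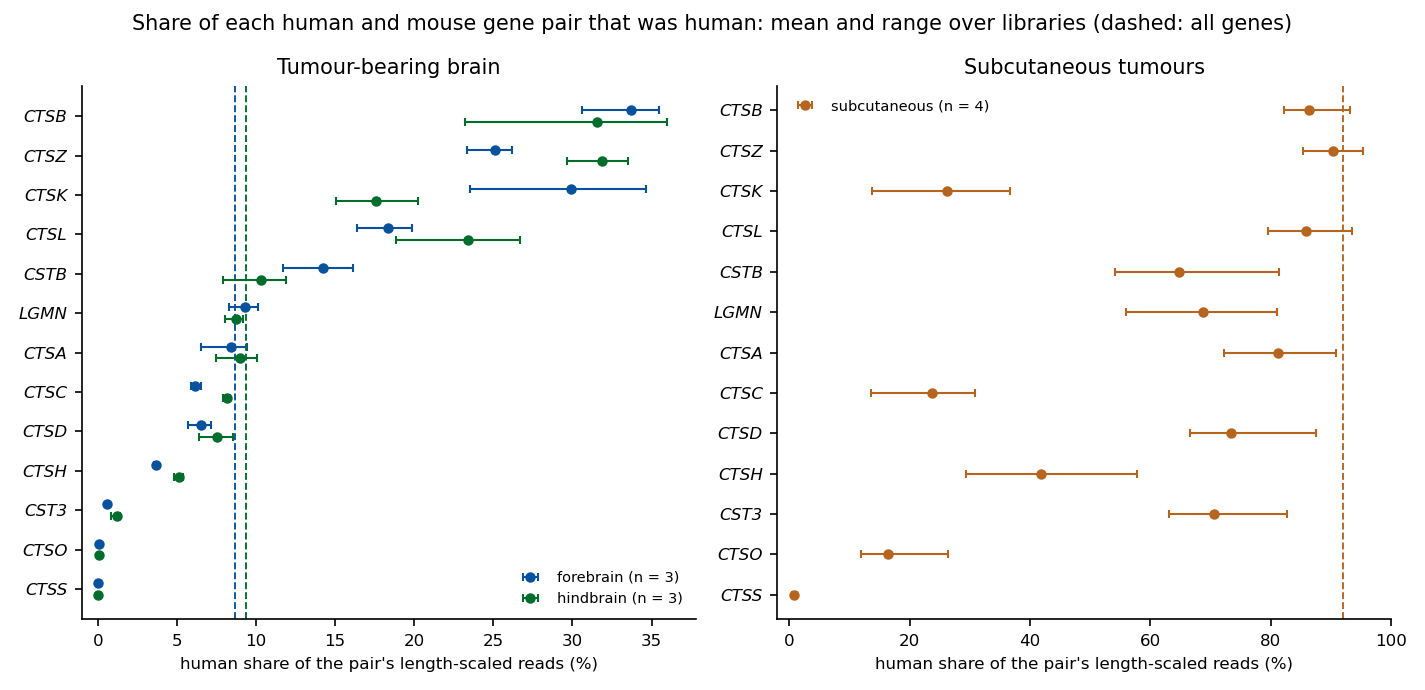
Human share of the length-scaled reads of 13 gene pairs in tumour-bearing forebrain and hindbrain (left) and in subcutaneous tumours (right), as mean and range over libraries, with dashed lines for all genes (8.65, 9.39 and 92%). CTSB, CTSZ, CTSK and CTSL lie right of the lines in brain, and CST3, CTSO and CTSS lie near 0. The place of CTSB depends on the lengths used for scaling, 580 bases in human and 4739 in mouse.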

How the data were processed

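The deposited tables hold RPKM per gene and library, computed by the authors, in 1 table for human and 1 for mouse genes. Reads were mapped to hg38 and mm10, per the submitters' processing notes; aligner and counter: not given in the sources used here. RPKM was rescaled to a sum of 1000000 per library and organism. Genes at 1 or more in at least 3 libraries of a fit were tested as log2(value + 1) with limma 3.58.1 (trend, robust), in fits of 13 human, 14 mouse brain and 10 mouse tumour libraries, adjusted by Benjamini and Hochberg over all genes. The test was checked on simulated data, where false calls exceeded the nominal share in the human and the mouse tumour fits, so that small called differences there are less sure. Members, lists and tests were chosen with earlier results of these data known. Named are members with a group mean of 5 or a call, and up to 3 list genes per direction. Reads were recovered from RPKM steps and gave whole numbers within 0.02 for 100% of 33975 human and 32644 mouse genes. The smallest whole numbers that fitted were taken. A gene above 0 in only 1 library always fits, so this share says little for genes read in few libraries. Mouse residuals of same-numbered tumour-bearing forebrain and hindbrain libraries correlated at 0.24 to 0.44, those of other numbers at most at -0.04. The labels do not state pairs. Same-numbered libraries were taken as pairs only in an alternative setting, and the main tests used no pairing. Promoters and coding sequences are from GENCODE 44 on GRCh38. R 4.3.3, Python 3.11.15 and pandas 2.3.3 were used. 1 gene and 1 promoter sequence are not reported here.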

Additional observations from a re-analysis of the deposited data

Results flagged for a closer look

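Among 64 groups of 4 libraries looked at for single values far from the rest, 2 held one, and chance alone flags about 1 in 20. Human CTSF was 0.0424 in subcutaneous replicate 4 and 0 in the other three, which is 1 read. Mouse Ctsf was 30.7 in tumour-free forebrain replicate 1 and 39.5 to 40.5 in the other three. Among the genes named from the lists, the change with metastases differed between forebrain and hindbrain for A2m, by 1.42 on the log2 scale (limma adjusted p = 0.0340, the rise being larger in forebrain, where its level without tumour was lower).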

How the results depend on the processing

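Of 2820 single-gene values under the alternatives, 2749 kept their side of the threshold, 50 lost a call and 21 gained one; 0 called values turned direction. Between forebrain and hindbrain metastases, 0 called human members became 1 with median-of-ratios scaling and 1 with nuclear genes only, and 0 to 2 when leaving out 1 library. Between tumour-free regions, 7 became 4 without a filter on low values and 4 without replicate 1 of both regions, and 4 to 7 when leaving out 1 library. Leaving out 1 library gave 8 to 9 calls for brain metastases against subcutaneous tumours, 8 to 10 against monolayer, 11 to 12 for subcutaneous tumours against monolayer, 7 to 11 in tumour-bearing forebrain and 7 in hindbrain. With the replicate number as a block, CSTB in subcutaneous tumours (adjusted p = 0.0797) and Ctsb between tumour-free regions (0.0517) lost their calls and Ctsk there gained one (0.0392). No other member's call changed with this block or with pairs as a random effect. Counts over all genes moved by more than 1.5 times in 3 comparisons. Between forebrain and hindbrain metastases 481 became 39 with only those groups fitted, 204 without a filter, 295 with the replicate block and 100 with voom. For tumour-bearing hindbrain 512 became 294 with a stricter filter and 853 without tumour-free replicate 1 of both regions. For the region difference 72 became 30 without a filter, 160 with random pairs, 173 with voom and 631 without those replicates. Leaving out 1 library gave 263 to 735, 291 to 804 and 12 to 343 in these 3, and took tumour-bearing forebrain from 4793 to 2353 without its replicate 2; the cause was not tested. Metastasis libraries held fewer human reads than the others, which limits CTSK, CTSH and CTSC most.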
